A study of Mus musculus with 2 samples.

Results

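The regions described here are splice junctions that span 100 bp or less. Of 515046 junctions in a deposited table made over both libraries on the mouse build mm9, 174017 carried the value 1 in both flags, A and C, of their names. The 9891 of these with a span of 100 bp or less are called short junctions below, and they made up 5.68% of the flagged junctions. The meaning of the flags is not stated in the sources used here. All values come from polyadenylated RNA longer than 200 nt from the gonadal fat pad, a white fat depot. The C57BL/6J mice were 8 weeks old. There was 1 group of 2 libraries, biological replicates 1 and 2, read as strand-specific pairs of 76 nt. The labels describe a pool of male and female littermates and give both libraries the same donor identifier, so how many mice stand behind each is not known. No treatment or genotype was compared, so nothing was tested between conditions.

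An intron is removed from the precursor RNA by the spliceosome, which pairs the 5′ end of the intron (the donor, usually GT) with its 3′ end (the acceptor, usually AG) through a branch point and a stretch rich in C and T. The space between these signals sets a lower limit on the length of an intron that can be spliced in this way. Short introns in mammals lie mostly in GC-rich genes, where splice sites are thought to be paired across the intron, whereas around long introns they are paired across the exon.

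The letters of several short introns are shown first because they hold all splicing signals within less than the length of 1 read pair. Positions are from the deposited table (mm9), and letters are from annotated GENCODE M21 transcripts of the same gene that keep the intron, read 5′ to 3′ on the gene's strand. Capitals mark the first 5 and last 3 bases of the intron. The first 4 are among the shortest matched to a gene, and the next 3 are among those with most reads.

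2310061I04Rik, 50 bp, chr17:36029935-36029984, minus: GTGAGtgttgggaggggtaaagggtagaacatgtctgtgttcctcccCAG
Cfb, 58 bp, chr17:34993891-34993948, minus: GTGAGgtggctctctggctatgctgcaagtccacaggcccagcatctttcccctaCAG
Adck5, 63 bp, chr15:76425041-76425103, plus: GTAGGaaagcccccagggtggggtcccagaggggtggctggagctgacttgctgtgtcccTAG
Pop5, 65 bp, chr5:115688079-115688143, plus: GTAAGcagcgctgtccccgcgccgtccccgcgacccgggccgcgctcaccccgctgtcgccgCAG
Crip1, 79 bp, chr12:114391587-114391665, plus: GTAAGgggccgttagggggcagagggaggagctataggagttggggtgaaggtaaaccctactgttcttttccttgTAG
Eef1a1, 85 bp, chr9:78327000-78327084, minus: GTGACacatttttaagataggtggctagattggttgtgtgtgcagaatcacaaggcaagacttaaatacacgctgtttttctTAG
Actb, 87 bp, chr5:143667156-143667242, minus: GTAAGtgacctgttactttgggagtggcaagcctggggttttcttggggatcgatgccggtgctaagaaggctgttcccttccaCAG

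Their base composition covered a wide range. GC content was 38.8% in the Eef1a1 intron, 53.2% in Crip1, 54.0% in Actb and 80% in Pop5. All 7 introns lie between coding exons of the matched transcript.

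Spans ran from 33 to 100 bp, with a median of 86 bp and quartiles of 80 and 92 bp. The commonest span was 88 bp, held by 460 junctions. Only 218 junctions (2.2%) spanned 70 bp or less and 17 spanned under 65 bp. There were 209 junctions at 61 to 70 bp, 2295 at 71 to 80 bp, 4256 at 81 to 90 bp and 3122 at 91 to 100 bp. The limit of 100 bp fell on a slope and not in a gap: 255 junctions spanned 99 bp and 267 spanned 100 bp, and the next 2 spans above the limit held 276 and 212. Median reads at these 4 spans were 85, 69, 88.5 and 91.5.

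**Figure D1:**
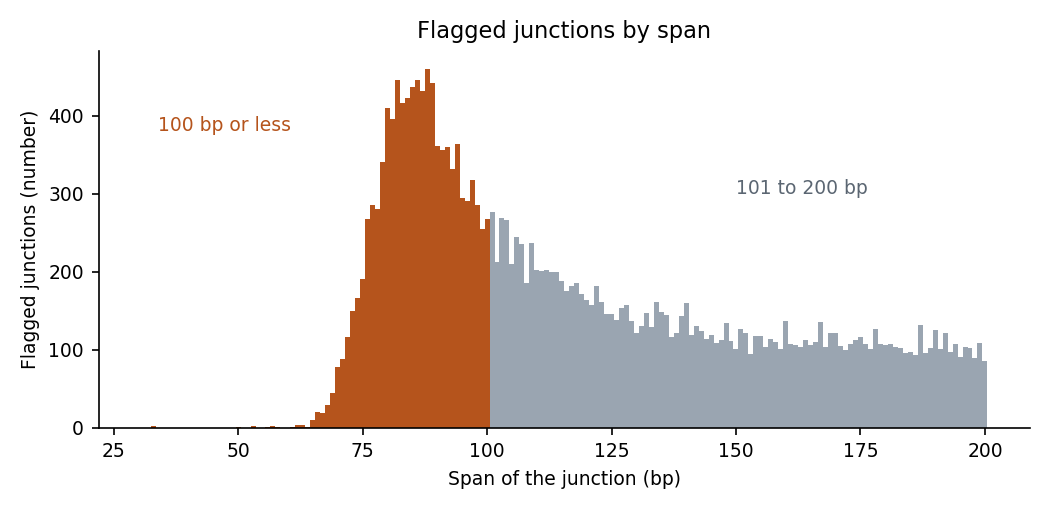
Number of flagged junctions (y axis) at each span in bp (x axis) up to 200 bp, with spans of 100 bp or less in orange and longer ones in grey. The counts climb steeply above 70 bp, peak at 88 bp with 460 junctions and decline across the limit of 100 bp.

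Flags separated well-read junctions from the rest at these spans. The table held 45872 junctions of 100 bp or less, of which 21.6% had both flags, 13.7% had C alone and 64.7% had neither. The 21.6% with both flags held 95.8% of the 3855204 reads across junctions of this length.

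Short junctions carried more reads than longer flagged ones. The median was 98 reads (95% interval 94 to 103), against 76 for spans over 100 and up to 200 bp, called the next class below, and 40 at all spans over 100 bp. They held 3692361 reads, 9.51% of all reads across flagged junctions, and ranged from 1 to 159258 reads each. At least 10 reads were seen at 83.1% of them, at least 100 at 49.8% and at least 1000 at 6.58%. The table also gives an IDR per junction (irreproducible discovery rate). It was 0.1 or less for 87.05% of short junctions (exact Clopper-Pearson 95% interval 86.4 to 87.7), 84.27% in the next class and 80.03% over 100 bp. These shares moved with read number, since 99.95% of short junctions with at least 10 reads were at 0.1 or less. They are not a measure of agreement between the 2 parts of the reads: a Camk2b junction with 280 reads in one part and 4 in the other was listed at 0. These intervals, and all others given here, cover counting error only.

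The reads are split in the table into R1 and R2, which the labels do not tie to the libraries. R1 held 1720438 and R2 held 1971923 of the short junctions' reads. Crip1, a small LIM-domain protein, had the most, 81682 R1 and 77576 R2 reads across its intron 2 of 79 bp. Cfd, the serine protease adipsin that fat cells secrete, followed with 70353 R1 and 56121 R2 reads across intron 2 (90 bp, chr10:79354358-79354447). These 2 junctions held 7.74% of all reads of short junctions, and the first 20 held 17.4%. Lcn8, a lipocalin of the epididymis, had 17725 R1 and 18424 R2 reads across intron 4 of 79 bp. Fasn, the fatty acid synthase, had 10675 R1 and 22738 R2 reads across intron 42 of 83 bp, its last, so that its R2 reads were over 2 times its R1 reads before scaling (log2 ratio 0.91 after scaling to all flagged junctions). Actb, cytoplasmic beta-actin, had 12018 R1 and 12407 R2 reads across intron 2, which lay close together. The translation elongation factors Eef1a1 and Eef2 each placed 2 short junctions among the first 20, and Gnas, the stimulatory G protein alpha subunit, placed 3. Hspa5, the chaperone BiP, had 9172 R1 and 5438 R2 reads across intron 1 of 82 bp, the one of the 20 that was annotated in a 5′ untranslated region. One junction of 98 bp on chromosome 19 with 13621 reads matched 2 genes alike and is left unnamed.

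**Figure D2:**
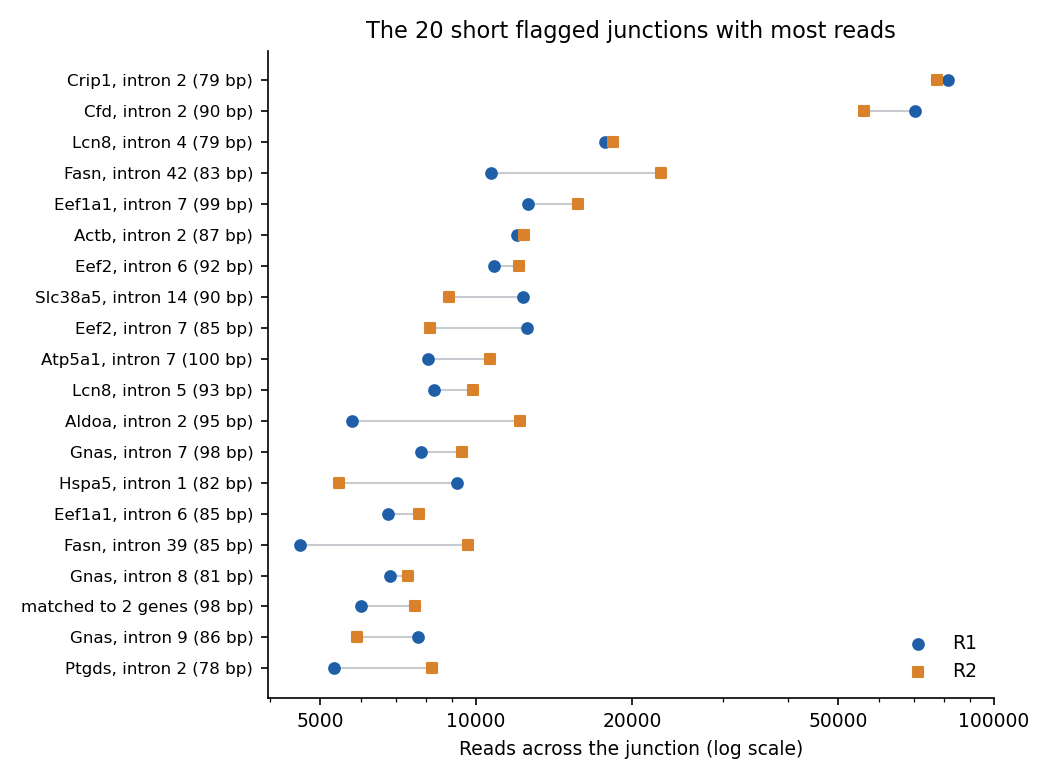
Reads across the 20 short junctions with most reads (x axis, log scale), with R1 as blue circles and R2 as orange squares, each row labelled by gene, intron and span. Crip1 and Cfd stand above the other 18, and the symbols are farthest apart at the Fasn junctions and Aldoa intron 2 (5767 R1 and 12156 R2 reads).

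The letters on both sides of the 2 junctions with most reads and of the 56 bp junction of Hnrnph1, which binds G-rich RNA and regulates splicing itself, are given below as 15 exon bases before and 15 after the join. Capitals mark the 2 bases on each side of the join. They are from the annotated spliced transcript.

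Crip1 exons 2 and 3: gggggtcatgctgAGCAtgaaggcaagccc
Cfd exons 2 and 3: ctgcatggatggaGTGAcggatgacgactc
Hnrnph1 exons 7 and 8: atagatttggaagAGACctcaattattgtt

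Among the shortest junctions with at least 10 reads, most had few, with exceptions. A junction of 33 bp on chromosome 11 had 7 R1 and 4 R2 reads and matched no annotated gene. The 50 bp junction of 2310061I04Rik had 13 R1 and 8 R2 reads and shared its donor with a junction of 73 bp with 275 reads. It thus held 7.09% of the reads of flagged junctions at that donor. All shares of reads at a donor or acceptor given here and below leave out unflagged junctions at the same site. Stx4a, a syntaxin of the plasma membrane, had a 57 bp junction with 3.94% of the reads at its donor, Cfb, complement factor B, one of 58 bp with 5.32%, and the ubiquitin ligase gene Rnf167 one of 62 bp with 1.4%. In all 4 the longer partner was still under 100 bp and held the larger share. The junctions of Hnrnph1 and Gcdh shared no splice site with another flagged junction. Hnrnph1 had 138 R1 and 114 R2 reads across 56 bp, and Gcdh, the mitochondrial glutaryl-CoA dehydrogenase, had 385 R1 and 401 R2 across 57 bp. Pop5, a subunit of RNase P and RNase MRP, had 753 R1 and 1098 R2 reads across 65 bp, 97.4% of the reads at a donor it shared with a junction of 2092 bp. In all, 4 of the 9 junctions of 60 bp or less and 25 of the 209 at 61 to 70 bp shared a site.

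Host genes were found without converting coordinates, from the exact lengths of the junction, the adjacent exon and the next junction. This gave 1 gene for 9369 short junctions (94.72%), several for 274 and none for 248. When the annotated intron lengths were made 1 base longer 5 short junctions matched, and on the opposite strand 10 matched. The 9369 fell in 4199 genes, 4143 of them protein-coding. By the chosen transcript of each gene, 96.01% were flanked by coding sequence, against 92.38% in the next class and 89.72% over 100 bp. A further 1.38% lay in 5′ untranslated regions and 0.854% in 3′ untranslated regions. Short junctions were the first intron in 4.70% of cases, against 7.06% in the next class and 12.15% over 100 bp. Internal exons next to them had a median length of 115 nt on both sides. This was close to the 117 nt on both sides in the next class, against 123 and 124 nt beside junctions over 100 bp.

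Annotated transcripts kept the intron of 1837 of the 9369 (19.61%), against 15.99% in the next class and 4.94% over 100 bp, and so gave its letters. All 1837 began with GT and ended with AG, as did all 2062 in the next class. These are annotated introns, and a subset of the junctions. All were chosen by flags A and C, and whether either flag depends on these letters is not known. The letters GTGAG opened 36.25% of the short introns (34.05 to 38.5) and 30.99% of those in the next class (29.0 to 33.04), while GTAAG opened 17.8% and 18.62%. They ended in CAG in 71.86% and 72.7%. Median GC content was 57.53% in the short introns and 55.56% in the next class, and that of the 50 exon bases on each side was 55% over all matched short junctions, 54% in the next class and 51% over 100 bp. C and T filled a median of 70% of the 20 bases before the last 3, against 75% in the next class.

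Reading frame gave a further difference. Read on from the upstream exon, 66.21% of 1696 kept short introns between coding exons held a stop codon in frame, against 82.64% of 1722 in the next class. For 154 short introns (9.08%) the length was divisible by 3 and no stop codon stood in frame, against 5.87%. A shorter stretch has fewer codons, and the share at equal length was not tested. Spans divisible by 3 made up 31.83% of all short junctions and 31.33% of those in the next class. Of the short introns between coding exons, 47.33% lay between codons, 29.86% after the first base of a codon and 22.81% after the second.

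Genes differed widely in how many short junctions they held. There were 2319 genes with 1, 1880 with 2 or more and 78 with 10 or more. Col7a1, the collagen of anchoring fibrils, had the most, 47 of its 116 flagged junctions, with a median span of 84 bp and 2 to 163 reads each. Lama5, a laminin alpha chain of basement membranes, had 31 of 77, with 90 to 693 reads each. Cpsf1, a subunit of the complex that recognises the polyadenylation signal, had 28 of 36 (77.8%), with a median span of 77 bp. Abca2, a lipid transporter, had 24 of 50 and Sbf1, a pseudophosphatase of the myotubularin family, 23 of 43. Flna, the actin cross-linker filamin A, had 22 of 50, with a median of 2036 reads across short and 1472 across longer junctions. These counts take only junctions matched to 1 gene. In 6 genes with at least 3 such flagged junctions all of those were short: Ccl21a, Arhgap33os, Eef1a1, H19, Cfb and Oaz1. Other junctions of these genes can be missing from the counts. The 74 bp junction with 338 reads at a shared Cfb donor was not among the 3 of Cfb, which had at most 289 reads. These 6 genes, and the count for Flna, were singled out after their values were seen. H19, an imprinted noncoding RNA, had 4 with 13 to 18 reads each, and Eef1a1 had 5 with 720 to 28359.

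Host genes of short junctions were more highly expressed than other genes with flagged junctions. Among hosts with a measured gene level, 3720 of 4189 (88.8%) reached 1 TPM (a transcript level corrected for length and scaled to a fixed total) in both libraries, against 78.34% of 10961 other genes. Median levels were 17.26 TPM in replicate 1 and 15.54 in replicate 2, against 8.35 and 7.33. The hosts also had more flagged junctions of any length, a median of 13 against 7, and the part of that in the difference was not tested.

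The share of short junctions differed between gene lists. In 3 of the 12 lists most short junctions lay in genes that held 10 or more each. Over all matched flagged junctions 5.71% were short. Junctions of 1 gene are not independent, which the intervals do not cover. Ribosomal protein genes had 23 short junctions of 168 (13.7%, interval 8.88 to 19.8), in 17 of 30 genes, and translation factors 47 of 351 (13.4%), in 18 of 24 genes. Complement and MHC genes had 24 of 211 (11.4%), splicing factors 45 of 420 (10.7%) and genes of the proteasome and chaperones 27 of 279 (9.68%). No gene of these 5 lists held 10 or more. Of the 24 in complement and MHC genes, however, C4b held 9 and C3 held 8. The share of that list without C4b and C3 was not computed.

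Genes of actin, tubulin and the contractile apparatus had 64 of 462 (13.9%), of which 45 lay in Flna, Flnc and Tln1. Collagens and other matrix genes had 138 of 1112 (12.4%), of which 93 lay in Lama5, Hspg2, Lamb2, Agrn and Col1a1. Fatty acid and triglyceride synthesis had 41 of 376 (10.9%), of which 27 lay in Fasn and Dgat1. With genes of 10 or more short junctions left out, a setting chosen after the values were seen, the shares were 6.15% (3.74 to 9.44), 5.51% (4.05 to 7.3) and 4.43% (2.44 to 7.32), against 5.13% over all genes treated alike. These 3 intervals hold that share.

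The intervals of 4 lists held 5.71% with all genes in: mitochondrial respiratory chain (8.72%, 4.96 to 14), membrane traffic (8.16%, 5.44 to 11.6), epididymis (2%, 0.414 to 5.73) and adipocyte identity (6.17%, 3.0 to 11.1). Genes of adipocyte identity had 10 of 162, in 6 of 19 genes. Among them Pnpla2, the triglyceride lipase ATGL, had 5335 R1 and 5340 R2 reads across 86 bp, and Cidec, a lipid droplet protein, 2712 R1 and 5357 R2 across 83 bp. The 3 of 150 in the epididymal list lay in Lcn8 and Lcn5. Lcn6, an epididymal lipocalin outside that list, had one too. Markers of both tissues were abundant. In replicates 1 and 2 the epididymal Gpx5 stood at 9518.09 and 6081.78 TPM and Rnase10 at 1120.18 and 685.3. The adipocyte genes Fabp4 and Adipoq stood at 2869.44 and 2744.18, and at 767.28 and 1299.31. In bulk RNA the number of cells of a type and the RNA per cell cannot be told apart. Xbp1, known for an intron cut out by IRE1 outside the spliceosome, had 4 flagged junctions, none of them short. The shortest of these was 300 bp, and the shortest span anywhere in the table was 31 bp. The intron cut by IRE1 is shorter than that, so these values cannot show whether it was removed.

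**Figure D3:**
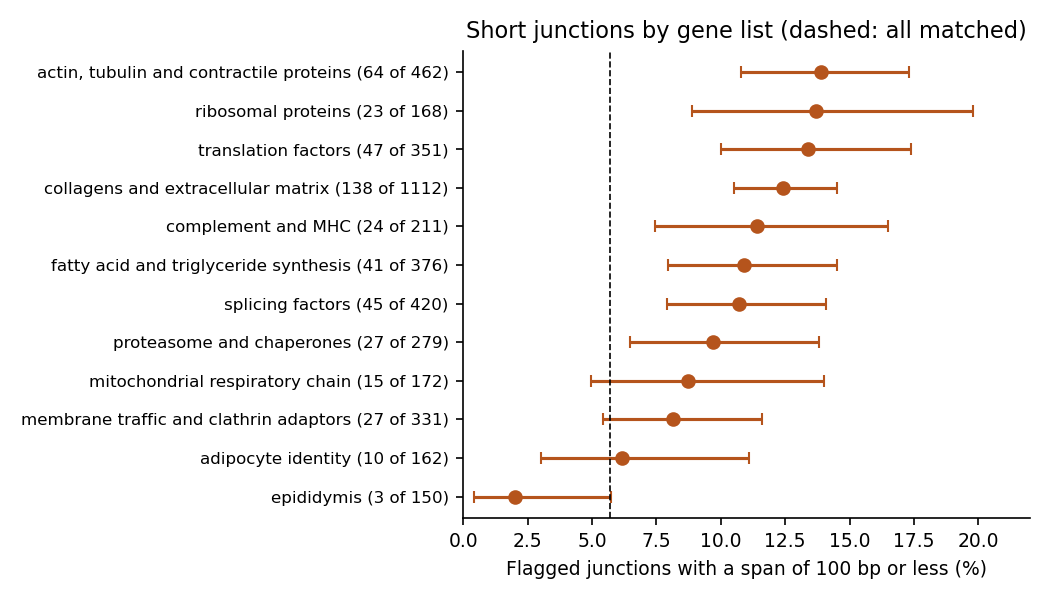
Percent of flagged junctions with a span of 100 bp or less (x axis) in 12 gene lists, with exact 95% intervals for counting error and the numbers beside each name. The dashed line marks 5.71% over all matched flagged junctions, the actin, ribosomal, translation and matrix lists lie farthest to its right, and without genes of 10 or more short junctions the actin and matrix lists stand at 6.15% and 5.51%.

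Chromosomes differed too. Short junctions made up 9.77% of the flagged ones on chromosome 17 (842 of 8622) and 8.79% on chromosome 7 (1107 of 12599). They made up 2.73% on chromosome 1 and 2.76% on chromosome 13. Chromosome Y had 11 of 96, a share whose interval ran from 5.86 to 19.6%. Both strands held similar numbers, 4830 plus and 5061 minus.

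Within a transcript, short introns were crossed by about as many reads as their neighbours. Of 15217 pairs of a short junction and an adjacent longer one, 10787 had at least 20 reads at both and were used. Their median log2 ratio of short over longer was 0.034 (0.013 to 0.054), and 70.7% of them lay within 2-fold. The quartiles were -0.585 and 0.671. With R1 alone the median was 0.030 and with R2 alone 0.024. For short junctions of 70 bp or less it was -0.012 over 230 pairs (-0.171 to 0.128). With the short junction upstream of the longer one the median was -0.019, and with it downstream 0.093. Between adjacent junctions that were both over 100 bp, the median of downstream over upstream was 0.058 over 79462 pairs. Of these, 66.7% lay within 2-fold. Pairs of 1 gene share its RNA and are not independent.

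**Figure D4:**
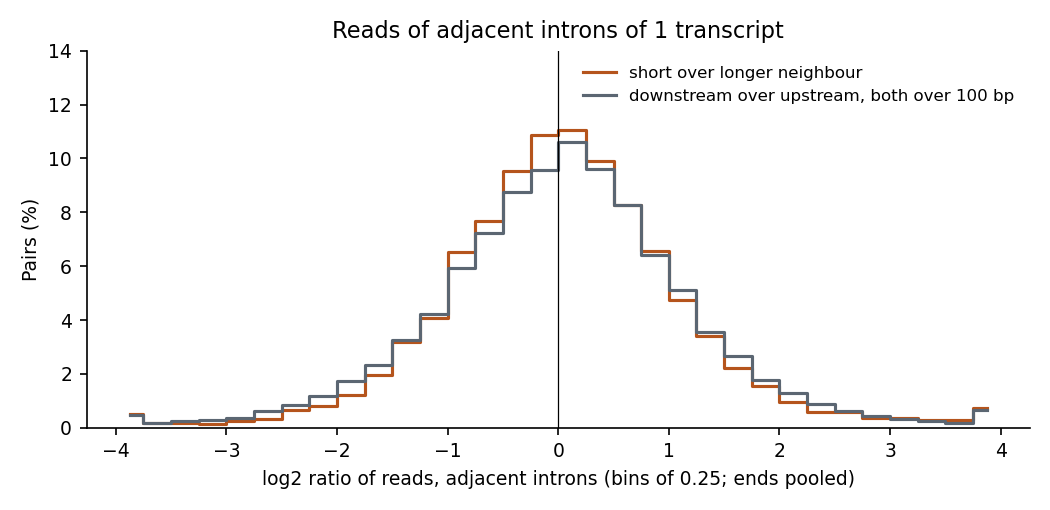
Percent of pairs (y axis) by log2 ratio of reads (x axis, bins of 0.25 with the ends pooled) for short over longer adjacent junctions (orange) and for downstream over upstream junctions both over 100 bp (grey). Both curves centre close to 0, with medians of 0.034 and 0.058.

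R1 and R2 were compared after scaling each to its total over all flagged junctions, 18206914 and 20613476 reads. Of 7489 short junctions with at least 20 reads, 828 (11.1%) were over 2-fold apart. The share was 11.7% in the next class and 13.8% over all flagged junctions. R2 was higher at 332 (4.43%, all flagged 5.24%) and R1 at 496 (6.62%, all flagged 8.54%). At 100 reads or more the share was 5.95%, against 6.5% in the next class and 7.15% of all flagged junctions. R1 and R2 give 1 value each, so these differences have no replicate check. Camk2b, a calcium and calmodulin-dependent kinase subunit best known from neurons, was farthest apart, with 280 R1 and 4 R2 reads across 86 bp and with 5 R2 reads of 106 in all across 73 bp. Its gene level was 56.2 TPM in replicate 1 and 0.9 in replicate 2. Gdpd3, a lysophospholipase D, had 4 R1 and 138 R2 reads across 77 bp, and 1.07 and 14.75 TPM in replicates 1 and 2. Muc5b, a gel-forming mucin, had 91 R1 and 20 R2 reads across 99 bp. Impdh2, of guanine nucleotide synthesis, had 35 R1 and 158 R2 reads across 84 bp while its gene stood at 73.15 and 60.29 TPM, and which replicate R1 belongs to is not known.

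Contigs are regions that the authors listed with an RPKM and an IDR. Their definition is not given in the sources used here, so a span inside a contig need not have reads throughout. The whole span lay inside 1 contig at 66.87% of short junctions and at 55.73% of those in the next class. By span the share was 93.3% at 61 to 70 bp, 78.17% at 71 to 80 bp, 65.46% at 81 to 90 bp and 58.65% at 91 to 100 bp. It also followed reads, from 28.9% of short junctions with 1 to 9 reads to 96.0% of those with 1000 or more. In the next class the matching shares were 28.2% and 90.2%. Gaps between contigs were as small as 11 bp. How contigs were joined is not given in the sources used here, and its part in these shares was not tested. All 20 junctions with most reads lay inside a contig, whereas an 85 bp junction of complement C3 with 2001 R1 and 1566 R2 reads did not.

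**Figure D5:**
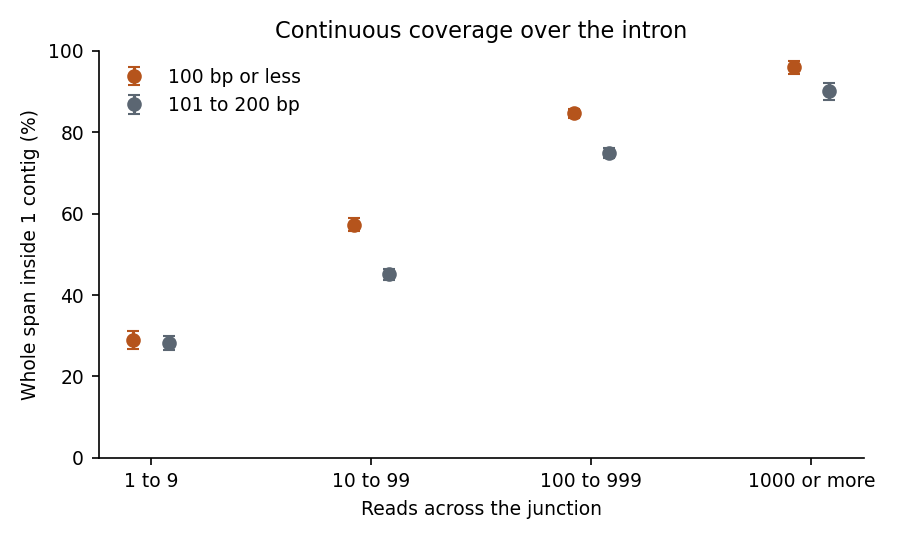
Percent of junctions whose whole span lay inside 1 contig (y axis) by number of reads across the junction (x axis), for spans of 100 bp or less (orange) and over 100 and up to 200 bp (grey), with exact 95% intervals for counting error. Shares are alike at 1 to 9 reads (28.9% and 28.2%) and higher for short junctions in the other 3 classes.

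The transcript tables hold annotated transcripts that keep a short intron. For 1282 short junctions in 900 genes, transcripts that keep the intron held a median of 6.47% of the gene's TPM in replicate 1 and 6.71% in replicate 2, against 6.31% and 6.51% in the next class. The share was over 10% for 36.7% of them in replicate 1 and 39.3% in replicate 2, against 35.9% and 37.5% in the next class. It was 1.52% and 0.888% for Actb intron 2, 6.3% and 6.19% for the 85 bp intron of Eef1a1, and 22.2% and 30.8% for intron 1 of Hspa5. For Tapbp, the chaperone tapasin of MHC class I loading, it was 29.5% and 35.2%. Such transcripts may differ elsewhere too, so these shares do not measure retention of 1 intron alone.

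A donor or an acceptor was shared with another flagged junction by 771 short junctions (7.80%), against 12.17% in the next class and 18.06% over 100 bp. When any junction of the table counted as a partner, flagged or not, 38.85% of short junctions shared a site. The 771 that shared a site with a flagged junction had a median of 41 reads, and all other short junctions 103. Where 2 junctions shared a donor and differed by at most 12 bp at the acceptor, 3 bp was the commonest distance, with 36 pairs, followed by 4 bp with 12. The 3 extra exon bases could be read in 32 of the 36 pairs, and were CAG in 23, AAG in 5 and TAG in 4. Bag6, a chaperone of misfolded proteins, showed such a pair at intron 12, with the donor side at chr17:35279785 on the plus strand. The joins below show 15 bases on each side, with the 2 bases next to the join in capitals, so that the 3 added bases CAG follow the join in the first form.

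Bag6, 83 bp intron: gtctctggagctcTGCAgggcgctgggctg
Bag6, 86 bp intron: gtctctggagctcTGGGcgctgggctgggt

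The 83 bp form had 175 R1 and 184 R2 reads and the 86 bp form 198 R1 and 242 R2. The 83 bp form thus held 46.9% of R1 and 43.2% of R2 reads of flagged junctions at the donor. The shares that follow also count flagged junctions only. Other pairs differed by more. Cnbp, a zinc finger protein that binds nucleic acids, used a 98 bp intron for 69.8% of the reads at its acceptor and one of 119 bp with 833 reads. Lcn6 used a 98 bp intron for 24.8% of R1 and 26.7% of R2 reads at its donor. Dcxr, which reduces dicarbonyls and xylulose, used an 81 bp intron for 37.1% of R1 and 37.4% of R2 reads, beside one of 191 bp. In these 2 genes the longer intron held more reads. At Espn, an actin-bundling protein, the 90 bp junction held 79.4% of R1 and 93.6% of R2 reads at its acceptor, the widest gap between R1 and R2 of the genes named here for shared sites.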

How the data were processed

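Junctions and contigs are the authors' tables over both libraries on mm9. Per the file headers and columns, the deposited junction table gave read counts, an IDR fraction and a browser score, and the deposited contig table gave RPKM, IDR as a fraction and another score. The deposited gene and transcript tables (mm10, GENCODE M4 per the labels) gave expected counts, TPM, FPKM and percent of gene TPM. Over Ensembl genes, replicate 1 held 47106979 and replicate 2 held 54129473 expected counts. Which aligner and quantifier were used is not given in the sources used here.

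Junctions were selected by flags and span. Hosts were matched by exact lengths of 2 introns and the exon between them to GENCODE M21, with exons up to 20000 bases, and the transcript was chosen by protein-coding type, coding sequence and then TPM. Matching and the 2-fold rule were run on simulated data as a check of the code only. The simulated junctions came from the annotation they were matched to. The simulated counts varied between R1 and R2 by counting error and set changes alone. Neither run measures accuracy on the real data. Adjacent pairs needed 20 reads at each junction. Named were the 20 junctions with most reads, the 10 shortest with at least 10 reads, the 5 farthest apart each way, 10 with shared sites, 10 with contigs, 3 per gene list and 3 per edge span. Members and lists were chosen with earlier results of these data known. Alternatives changed limits, flags, reads and IDR. No p-value was computed. Python 3.11.15, pandas 2.3.3 and scipy 1.17.1 were used.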

Additional observations from a re-analysis of the deposited data

How the results depend on the processing

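Of 105 alternative settings, 45 left a value within its interval or within 1.5 times of a count and 60 moved it. The next class was not recomputed under them, so they say nothing of the direction of a comparison. With a limit of 80 bp there were 2513 junctions with a median of 113 reads, 88.14% at an IDR of 0.1 or less, 53.24% of reads in R2, 79.47% inside a contig, 9.152% with a shared site, 26.22% divisible by 3 and 90.24% of hosts at 1 TPM. With 90 bp the median was 105 reads, the R2 share 52.91%, the contig share 70.66% and the share divisible by 3 33.54%. With 120 bp the R2, contig and shared-site values were 53.27%, 64.14% and 8.534%.

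With flag C at 1 and flag A at any value there were 16157 junctions, those with both flags among them. Their median span was 85 bp and their median 15 reads, with 57.87% at an IDR of 0.1 or less. R2 held 53.18% of their reads. The shares inside a contig, with a shared site and divisible by 3 were 72.02%, 21.53% and 33.45%. At least 10 reads gave 99.95% at that IDR, 74.6% inside a contig, 6.57% with a shared site, 96.75% matched and 97.3% of hosts expressed. At least 100 reads gave 4922 junctions and 100%, 86.16%, 5.77%, 97.05% and 99.86% for the same measures, with 53.47% in R2. An IDR of 0.1 or less gave a median of 131 reads, 72.81% inside a contig, 6.852% shared, 96.6% matched and 95.63% expressed, and an IDR of 0.01 or less gave 152, 75.6%, 6.484%, 96.87% and 98.24%. Median reads were 51 in R1 and 56 in R2 alone.

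The share of junctions apart between R1 and R2 was 32.03% at 1.5-fold, 2.817% at 3-fold and 5.953% at 100 reads. Contigs of 1 RPKM or more covered 62.19% of spans, and 77.55% were covered over at least 50% of their length. Shared sites stood at 4.924% with partners of 10 reads or more and 38.85% when any junction of the table counted. Matching over 3 introns placed 92.61%. The gene lists without genes of 10 or more short junctions, a setting added after the values were seen, moved to 6.15% (actin), 5.51% (matrix) and 4.43% (lipid synthesis). Hosts expressed were 98.02% at 0.1 TPM, 72.21% at 5 TPM, 87.54% by FPKM and 89.9% by posterior mean TPM, and 89.69 to 90.55% with 1 replicate left out. Fewer or more junctions enter by construction of the span, flag, read and IDR settings, and for the other settings the cause was not tested. No paired analysis was possible because there was 1 group.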
